A study of Rattus norvegicus with 12 samples.

Results

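The genes described here are Prnp, which codes for the prion protein, App and Aplp2, which code for the amyloid precursor protein and its relative, and Adam10, which codes for a membrane protease that sheds such proteins from the cell surface. They were chosen by gene symbol, as every probe set that the array's annotation assigns to 1 of these genes alone. This gave 8 probe sets for the 4 genes, out of 8740 probe sets and 4736 named genes: 1 for Prnp, 2 for App, 4 for Aplp2 and 1 for Adam10. The genes were selected on their differences between treatments on these same arrays, so those differences are given as a description with no test. Tests are given only for other genes and for changes over the hours within a treatment, which are not independent of that choice. CC531 is a cell line from a rat colon carcinoma. Its cells received 4.5 mM butyrate for 2, 6, 12, 16 or 24 h (5 arrays), 3 mM aspirin for the same hours (5 arrays), or no treatment for 2 or 24 h (2 arrays). Butyrate is a short-chain fatty acid of the gut and an inhibitor of histone deacetylases, and aspirin blocks the cyclooxygenases that make prostaglandins. Each array held total RNA of 1 sample, with 1 array for each treatment and hour, and the labels do not say whether arrays came from separate cultures, so the spread between them may be technical. All groups share the 1 line, and the untreated arrays have no partner for 6, 12 and 16 h.

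The prion protein is a glycoprotein tethered to the outer membrane by a lipid anchor. It binds copper, and its misfolded form is the agent of prion diseases. The amyloid precursor protein spans the membrane. Cleavage by ADAM10, the main alpha-secretase, sheds its outer part, whereas cleavage by beta-secretase followed by gamma-secretase releases amyloid beta, the peptide of Alzheimer plaques. APLP2 is a close relative of the amyloid precursor that is shed in a similar way and lacks the amyloid beta stretch. ADAM10 also sheds the prion protein, Notch receptors, cadherins and ligands of the EGF receptor, and epithelia of the gut express it.

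The stretches before the annotated starts of Prnp and Adam10 are shown because these genes had the most unlike patterns: Prnp read highest with butyrate and Adam10 read lowest with aspirin. Each is the RefSeq sequence of the 250 bases before the start, read from the GRCr8 build on the gene's own strand, chr3:139638826-139639075 (+) for Prnp and chr8:80226612-80226861 (+) for Adam10. Capitals mark the 4 motifs searched on both strands: the GC box, spelled GGGCGG, the pentamer CCAAT, the AP-1 element, spelled TGACTCA, and the E-box, spelled CACGTG. A motif on the opposite strand appears as its reverse complement. Prnp had 2 annotated starts, and the window of the first listed is shown.
Prnp: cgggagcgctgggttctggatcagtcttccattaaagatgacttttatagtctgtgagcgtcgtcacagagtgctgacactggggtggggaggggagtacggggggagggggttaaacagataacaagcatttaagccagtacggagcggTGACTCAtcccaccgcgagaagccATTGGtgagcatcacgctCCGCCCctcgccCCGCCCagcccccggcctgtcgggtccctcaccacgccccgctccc
Adam10: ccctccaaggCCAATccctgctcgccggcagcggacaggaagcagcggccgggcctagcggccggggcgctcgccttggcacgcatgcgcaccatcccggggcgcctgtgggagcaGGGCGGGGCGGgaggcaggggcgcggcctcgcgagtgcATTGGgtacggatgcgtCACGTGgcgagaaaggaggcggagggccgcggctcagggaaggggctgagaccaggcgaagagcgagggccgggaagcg
The Prnp stretch held 2 GC boxes, which begin 58 and 46 bases before the start, 1 CCAAT box at 76 bases and 1 AP-1 element at 100 bases. The Adam10 stretch held 2 GC boxes that overlap each other, at 134 and 129 bases, 2 CCAAT boxes at 240 and 96 bases and 1 E-box at 79 bases. Windows of the same length for App and Aplp2 overlap the annotated spans of these genes and are given as counts only: 1 GC box for App, and 5 GC boxes and 2 CCAAT boxes for Aplp2. Of 33469 rat promoter windows of this length, 30.5% held a GC box, 34% a CCAAT box, 4.05% the AP-1 element and 5.59% the E-box. These matches describe the letters of the windows and are not evidence that a factor binds there.

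Values are intensities from 1 scaled table, and log2 values were taken after raising anything below a floor of 91 to that floor, since between 21.6 and 25.6% of the values on an array were negative. A filter on low values left 6118 of the 8740 probe sets for testing, among them all 8 of these genes. The line carried the keratins and adhesion genes of an epithelium on all 12 arrays (Krt8, Krt18, Krt19, Epcam and Cldn3, 5 of 7 epithelial markers on the array), while Krt20 was above the floor on 6 arrays and Cdx1 on none. Of 8 neuronal markers on the array, 1, Snap25, was above the floor on every array, and Nefl, Nefm, Syt1 and Gad1 were above it on none. Map2 was above it on 11 arrays, reading up to 1035.6, Gap43 on 5 and Syp on 3. The summed level of the neuronal markers lay between 474 and 2169 with butyrate, between 441 and 1009 with aspirin and between 891 and 1176 in untreated cells. It therefore reached its highest value with butyrate, as Prnp and Aplp2 did, and its part in their values was not tested. The 4 glial markers lay between 65.1 and 140 in sum with butyrate, between 64.6 and 275 with aspirin and between 314.5 and 620.9 in untreated cells, and none of them was above the floor on every array. The 8 fibroblast markers, of which Col1a1, Col1a2, Pdgfra and Acta2 were above the floor on all arrays, lay between 3594 and 4578 in sum with butyrate, between 2220.1 and 4903 with aspirin and between 4723 and 5639 in untreated cells. Acta2 alone read 1019.3 to 4419.8 over the 12 arrays, and the next brightest, Col1a1, read 318.7 to 801.6, so these sums mainly follow Acta2. The butyrate and untreated ranges of the fibroblast sums did not overlap, nor did those of the glial sums, whose aspirin range also lay below the untreated one. All these sums left out negative values but kept other values under the floor. Of the glial markers, Mbp was above the floor on no array, Aqp4 on 2, S100b on 3 and Mog on 4. No share over all tested probe sets was computed for such gaps, so nothing is read from them. Blood and immune markers gave sums of 339.6 to 592.6 with butyrate, 117.2 to 502.7 with aspirin and 308.6 to 577 in untreated cells. Endothelial markers gave 131.2 to 258, 134.7 to 264.9 and 251.7 to 360.6 in the same order. Of these last lists, Ptprc and Pecam1 were above the floor on 11 arrays and Cd4 on 10. The part of any list in the results was not tested.

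**Figure D1:**
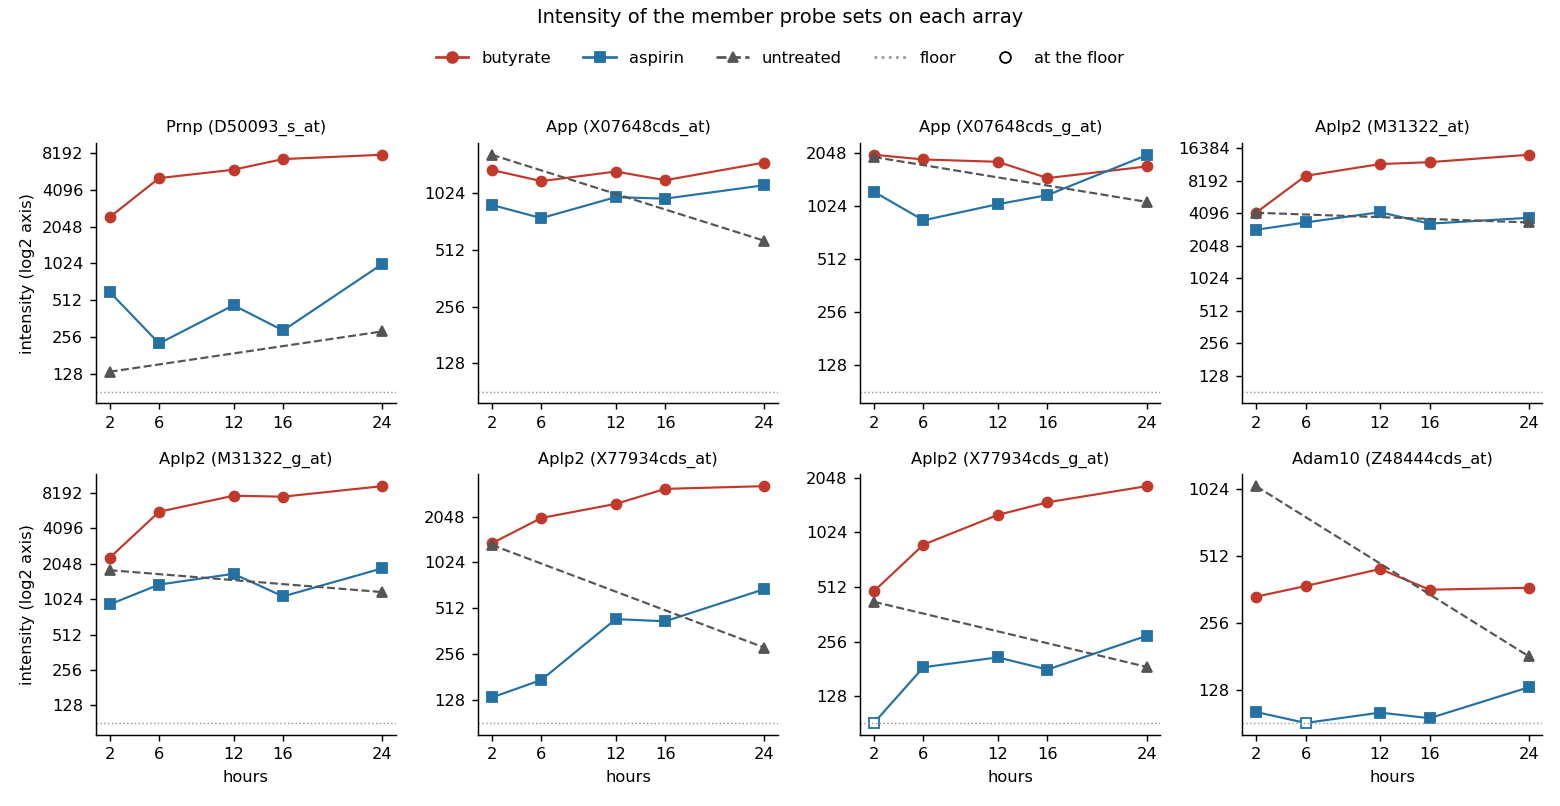
Intensity (log2 axis) of the 8 probe sets of Prnp, App, Aplp2 and Adam10 against hours, with 1 point for each of the 5 butyrate, 5 aspirin and 2 untreated arrays; the dotted line is the floor of 91, open points lie at it, and lines join arrays of a group. Prnp with butyrate lies between 2452.8 and 7999.4, above every other array, while Adam10 with aspirin lies between the floor and 131.7, below both untreated arrays.

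Prnp had the highest estimate for butyrate minus untreated of all tested probe sets with the floor of 91, under which genes with untreated arrays at the floor have only lower bounds. Its probe set, D50093_s_at, read 2452.8, 5143.8, 6031.2, 7372.3 and 7999.4 after 2, 6, 12, 16 and 24 h of butyrate. With aspirin it read 599.7, 225.9, 465.2, 288.6 and 1014.9 at the same hours. The untreated arrays read 132.3 at 2 h and 283.6 at 24 h. Every butyrate array thus lay above every other array, and the aspirin arrays overlapped the untreated ones, with 225.9 at 6 h below the untreated value of 24 h. The difference between butyrate and untreated cells was 4.79 ± 0.56 on the log2 scale (estimate ± SE, 5 and 2 arrays), or 27.8-fold, and ranked 1 of 6118. Matched by hour with an untreated array, Prnp was 18.5-fold higher at 2 h of butyrate and 28.2-fold higher at 24 h.

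Prnp was also brighter with aspirin than in untreated cells on average, by less. Aspirin minus untreated was 1.22 ± 0.56 on the log2 scale (rank 65 of 6118 from the top), with 0.67 without the untreated 2 h array and 1.77 without that of 24 h. At the same hour aspirin read 4.53-fold above the untreated array at 2 h and 3.58-fold above it at 24 h. The untreated arrays themselves differed 2.14-fold, with the one at 24 h higher. Butyrate minus aspirin, which pairs the arrays hour by hour, was 3.58 ± 0.41 (11.9-fold, rank 1 of 6118) and was smallest at 2 h (2.03) and largest at 16 h (4.67). These comparisons share the butyrate, aspirin and untreated arrays among them and are not independent of each other.

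Aplp2 was the other gene that read higher with butyrate, and it did so on all 4 of its probe sets. The brightest, M31322_at, read 4130.7, 9056.0, 11636.0, 12119.6 and 14193.1 over the hours of butyrate, against 2864.0, 3353.6, 4169.1, 3265.3 and 3699.5 with aspirin. Untreated cells gave 4121.7 at 2 h and 3349.4 at 24 h. The 2 h butyrate value was level with the untreated value of that hour (a log2 difference of 0.00), and by 24 h the difference was 2.08, or 4.24-fold. Its group difference between butyrate and untreated cells was 1.34 ± 0.35 (2.54-fold, rank 398 of 6118), and that between aspirin and untreated cells was −0.11 ± 0.35.

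The partner probe set M31322_g_at, which shares its source sequence with M31322_at, read 2293.0, 5650.0, 7727.9, 7585.3 and 9318.8 with butyrate. It read 921.8, 1360.8, 1679.6, 1079.8 and 1869.0 with aspirin, and 1803.5 and 1175.1 in untreated cells at 2 and 24 h. Its aspirin and untreated values overlapped, and all butyrate values lay above both. The group differences were 2.02 ± 0.45 for butyrate and −0.12 ± 0.45 for aspirin against untreated cells.

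The other pair of Aplp2 probe sets was dimmer and gave a different picture of untreated cells. X77934cds_at read 1366.8, 2003.3, 2477.3, 3108.6 and 3238.4 with butyrate, 133.6, 174.0, 435.6, 422.0 and 685.3 with aspirin, and 1335.1 and 283.3 in untreated cells at 2 and 24 h. X77934cds_g_at read 484.8, 876.8, 1278.6, 1500.5 and 1842.3 with butyrate, and 184.7, 209.3, 179.2 and 275.3 at 6, 12, 16 and 24 h of aspirin, after a 2 h array under the floor at −8.8. Its untreated values were 424.1 at 2 h and 185.5 at 24 h. The untreated array of 24 h was thus 4.71-fold and 2.29-fold below that of 2 h on this pair, against 1.23-fold and 1.53-fold on the M31322 pair. Butyrate minus untreated was 1.92 ± 0.65 and 1.95 ± 0.53 on the X77934 pair, and aspirin minus untreated −0.98 ± 0.65 and −0.66 ± 0.53. For X77934cds_at the butyrate difference was 0.80 without the untreated 24 h array and 3.04 without the untreated 2 h array, and the aspirin difference was −2.10 and 0.14. For X77934cds_g_at the butyrate difference was 1.36 and 2.55 in the same fits, and the aspirin difference −1.26 and −0.068.

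Aplp2 also read higher with butyrate than with aspirin on all 4 probe sets. Butyrate minus aspirin gave 1.45 ± 0.21, 2.14 ± 0.21, 2.90 ± 0.23 and 2.62 ± 0.19 for M31322_at, M31322_g_at, X77934cds_at and X77934cds_g_at, with ranks 253, 66, 11 and 27 of 6118. On M31322_at the hourly difference was 0.53 at 2 h, 1.43 at 6 h, 1.48 at 12 h, 1.89 at 16 h and 1.94 at 24 h. Over the 12 arrays the log2 values of pairs of Aplp2 probe sets correlated at Pearson's r of 0.87 to 0.99, a description of how alike probe sets of 1 gene were on arrays that share groups and scaling.

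App, the amyloid precursor itself, differed little between groups. X07648cds_g_at, the brighter of its 2 probe sets, read 1994.9, 1875.6, 1819.8, 1471.3 and 1712.0 with butyrate and 1231.5, 848.7, 1047.4, 1178.6 and 1983.8 with aspirin. The untreated arrays read 1936.9 and 1079.2. X07648cds_at read 1347.7, 1176.1, 1321.4, 1189.5 and 1474.8 with butyrate, 880.7, 750.0, 967.8, 950.6 and 1119.5 with aspirin, and 1620.9 and 569.1 in untreated cells at 2 and 24 h. The butyrate values lay within the untreated pair on X07648cds_at and reached above it once, at 2 h, on X07648cds_g_at. Butyrate minus untreated was 0.29 ± 0.31 on X07648cds_g_at and 0.43 ± 0.32 on X07648cds_at, and aspirin minus untreated was −0.26 ± 0.31 and −0.05 ± 0.32. These signs turned with the untreated array used. The butyrate differences were −0.13 and −0.32 without the untreated 24 h array and 0.71 and 1.19 without the untreated 2 h array. Without the untreated 24 h array the aspirin differences were −0.68 and −0.81, and without the untreated 2 h array they were 0.16 and 0.70.

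Between the treatments App read somewhat higher with butyrate. Butyrate minus aspirin was 0.55 ± 0.21 on X07648cds_g_at and 0.49 ± 0.12 on X07648cds_at, or 1.46-fold and 1.40-fold. On X07648cds_at every butyrate array lay above every aspirin array. On X07648cds_g_at the 24 h aspirin array, at 1983.8, lay above the 24 h butyrate array, at 1712.0. The 2 App probe sets correlated at r = 0.82 over the 12 arrays.

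Adam10, the sheddase, was low with aspirin. Its probe set, Z48444cds_at, read 336.4, 375.7, 448.2, 361.7 and 368.8 over the hours of butyrate. With aspirin it read 101.9 at 2 h, 69.7 (under the floor) at 6 h, and 101.3, 95.6 and 131.7 at 12, 16 and 24 h. The untreated arrays read 1056.9 at 2 h and 181.4 at 24 h, a difference of 5.83-fold between them. All aspirin arrays therefore lay below both untreated arrays, and all butyrate arrays lay between the untreated ones. The aspirin values were close to the floor of 91, so the size of the aspirin difference depends on that floor.

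Aspirin minus untreated was −2.08 ± 0.48 for Adam10, 4.23-fold lower and rank 3 from the lowest of 6118. At the same hour the aspirin array was 10.4-fold below the untreated one at 2 h and 1.38-fold below it at 24 h. Without the bright untreated array of 2 h the group difference was −0.81, without the untreated 24 h array it was −3.35, and with a floor of 200 it was −1.20. Butyrate minus untreated was −0.22 ± 0.48, with −1.49 without the untreated 24 h array and 1.05 without the untreated 2 h array, so its direction depended on which untreated array was used. Butyrate minus aspirin does not use the untreated arrays. It was 1.86 ± 0.16 (3.64-fold, rank 113 of 6118), and hourly it was 1.72, 2.05, 2.15, 1.92 and 1.49, where the aspirin array of 6 h was at the floor. With a floor of 200 the group difference was 0.91, so its size and rank hold for the floor of 91 only.

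**Figure D2:**
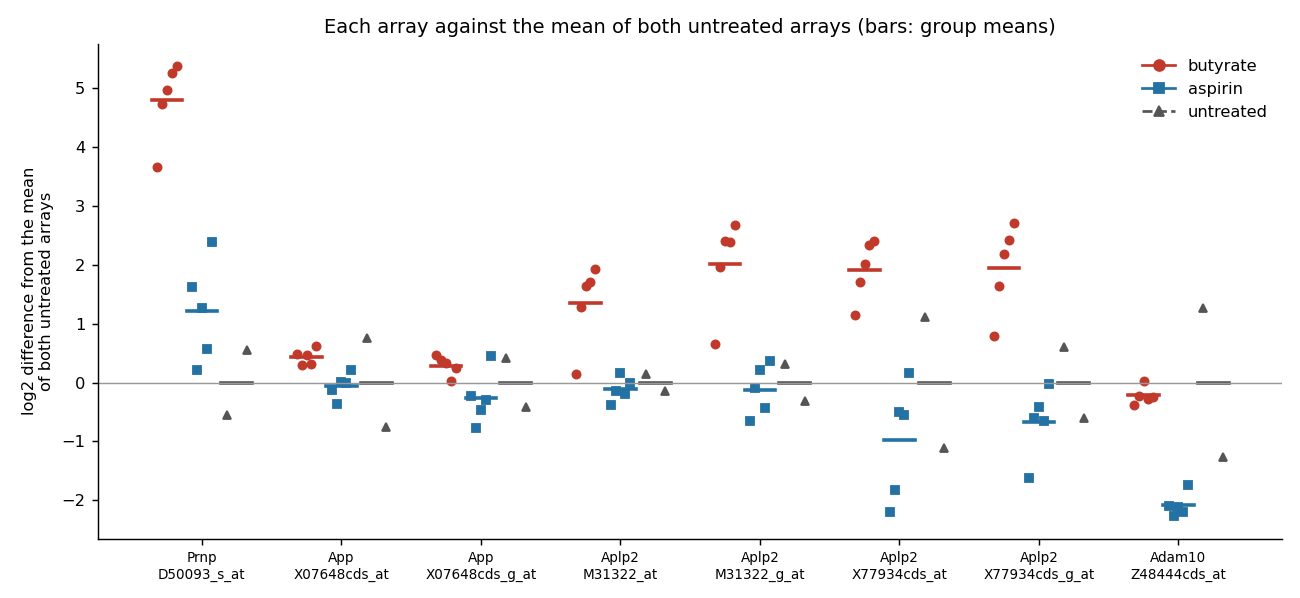
Log2 difference of every array from the mean of both untreated arrays, for the 8 probe sets, with 5 butyrate, 5 aspirin and 2 untreated points each and short bars at the group means. Prnp with butyrate lies between 3.66 and 5.37, the Aplp2 points are lowest at 2 h and highest at 24 h of butyrate, and the 2 untreated points of Adam10 stand 2.54 apart.

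Seen as whole groups, 5 of the 8 probe sets, those of Prnp and Aplp2, had every butyrate array above both untreated arrays, where 14.7% of the tested probe sets did. All butyrate arrays lay above all aspirin arrays for 6 of the 8, namely Prnp, Adam10, 1 of App and 3 of Aplp2, where 10.3% of tested probe sets did. All aspirin arrays lay below both untreated arrays for 1 of the 8, Adam10, where 7.78% did. Nothing is read from these shares, since the genes were chosen on the same values. The untreated arrays differed from each other at least 2-fold on many probe sets, with 5.66% higher and 10.9% lower at 24 h. Among the 8, Prnp was in the first class, and Adam10, both X77934 probe sets of Aplp2 and X07648cds_at of App were in the second.

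The change over the hours within a treatment was tested with limma on the 10 treated arrays, as a slope over log2 hours. That is the log2 change for each doubling of the time. The slope uses no untreated array, but it comes from treated arrays on which the genes were chosen. On M31322_at of Aplp2, butyrate minus untreated was 0.00 at 2 h and 2.08 at 24 h. Its rise is thus part of its group difference, and slope p-values and shares of these genes are not independent support. With butyrate, 4 of the 8 probe sets rose, all of them Aplp2, where 4.79% of tested probe sets rose and 4.2% fell (293 and 257, or 154 and 533 after centring each array on its median). M31322_at rose by 0.49 ± 0.06 per doubling (adjusted p = 0.00367), M31322_g_at by 0.55 ± 0.09 (0.0126), X77934cds_g_at by 0.54 ± 0.08 (0.0106) and X77934cds_at by 0.36 ± 0.09 (0.0447). Between 2 and 24 h of butyrate, M31322_at thus became 3.44-fold brighter. Without the 2 h array none of the 4 was called. The slope was then 0.32 (adjusted p = 0.158) for M31322_at and 0.34 (0.419) for M31322_g_at. It stayed close to its value for the other pair, at 0.54 (0.188) for X77934cds_g_at and 0.37 (0.42) for X77934cds_at. The X77934cds_at call was lost in 8 of 10 fits that left out a single array.

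Prnp had a slope as steep with a wider error, 0.47 ± 0.22 per doubling (adjusted p = 0.23). Its log2 difference from the untreated mean was 3.66 at 2 h and 5.37 at 24 h of butyrate. The error comes from 1 spread fitted over the arrays of both treatments. Prnp read higher at each later hour of butyrate, from 2452.8 to 7999.4. With aspirin it went up and down between 225.9 and 1014.9. A slope error from the butyrate arrays alone was not fitted, so the part of either treatment in that error was not tested. Without the 2 h butyrate array the Prnp slope was 0.33 (adjusted p = 0.88 in limma). The lowest adjusted p with any 1 array left out was 0.089. The slopes of App with butyrate were 0.02 on X07648cds_at and −0.09 on X07648cds_g_at (adjusted p = 0.961 and 0.724), and that of Adam10 was 0.05 (0.818). After centring each array on its median, the first App slope was −0.09 and the Adam10 slope −0.06.

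With aspirin, 1 of the 8 probe sets rose, where 1.32% of tested probe sets rose and 0.327% fell. It was X77934cds_at of Aplp2, at 0.67 ± 0.09 per doubling (adjusted p = 0.02), and it missed the threshold without the 24 h aspirin array (0.083), the 6 h butyrate array (0.0504) or the 16 h butyrate array (0.0568), and with a floor of 200 (0.092). Its partner X77934cds_g_at had 0.39 ± 0.08 (0.0611), from a 2 h array at the floor. The M31322 pair had 0.10 (0.387) and 0.22 (0.251), so the probe sets of Aplp2 did not give 1 answer for aspirin. Prnp had 0.11 (0.878), the App probe sets 0.10 and 0.14 (0.46 and 0.531), and Adam10 0.07 (0.718). The difference between the butyrate slope and the aspirin slope passed the threshold for 0 of the 8 probe sets in limma, with 2 positive and 1 negative at an unadjusted p under 0.05, where 0.686% of tested probe sets had a larger butyrate slope and 1.05% a smaller one. It came nearest for M31322_at, with 0.39 ± 0.08 (adjusted p = 0.0642).

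**Figure D3:**
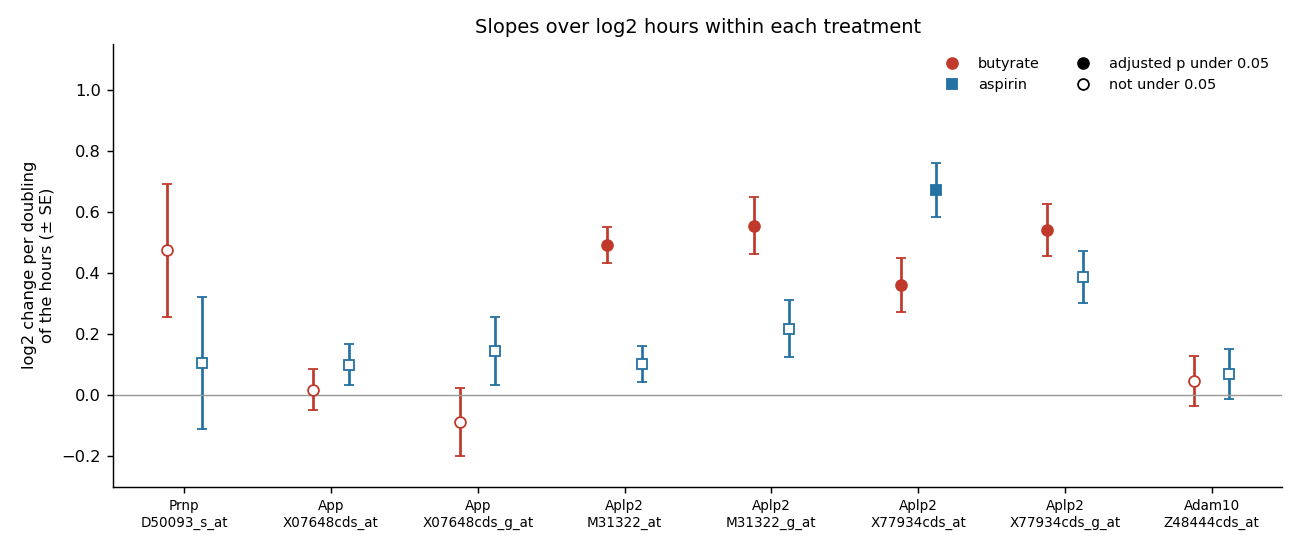
Slope over log2 hours (log2 change per doubling of the hours ± SE) of the 8 probe sets, with butyrate and with aspirin, from limma on the 10 treated arrays; filled points have an adjusted p under 0.05. All 4 Aplp2 probe sets are filled for butyrate, between 0.36 and 0.55, and X77934cds_at is filled for aspirin, at 0.67.

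Genes with the most similar course over the 12 arrays were ranked by Pearson's r of log2 values. This is a description that mostly reflects differences between the groups and between the untreated arrays. Nearest to Prnp were Gch1 (r = 0.97), an enzyme of tetrahydrobiopterin synthesis, the small heat shock protein gene Hspb1 (0.97), Tcp11l2 (0.96), the adhesion receptor gene Adgrl1 (0.96) and Grina (0.96). Nearest to M31322_at of Aplp2 were the G protein subunit gene Gng8, Ndrg4, the glutamine synthetase gene Glul, the small GTPase gene Rab4a and Mapt, the gene of tau, all at 0.98. Of these, Glul alone had every aspirin and untreated array above the floor, with a lowest value of 888.5. The others had every aspirin and untreated array under the floor, reading at most 77.1 for Gng8, −78.5 for Ndrg4, 55.9 for Rab4a and −14.9 for Mapt. Their log2 values were thus constant on those arrays, and they passed the filter through butyrate alone. Their r therefore says nothing of likeness to Aplp2 outside butyrate. Nearest to X07648cds_g_at of App were the phosphodiesterase gene Pde4a and Sh2b3 (both 0.92), the actin-bundling plastin gene Pls3 and the phosphatase gene Ppm1b (both 0.91) and Pacsin2 (0.90). Nearest to Adam10 were the nuclear pore gene Nup98, the elongation factor gene Supt5h and Mtpn (all 0.96), and Vcp and the thioredoxin reductase gene Txnrd1 (both 0.95). Aspirin minus untreated lay between −0.97 and −0.78 on the log2 scale for those 5 genes, and was −2.08 for Adam10.

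Other genes of the pathway came from 5 lists of known partners, chosen with earlier results of these data known, so their counts are not independent support. They held 131 genes, of which 86 were on the array and 72 were tested, each by its brightest probe set. With butyrate against untreated cells 10 of the 72 were higher and 5 lower (limma, adjusted over all 6118 probe sets), where 7.78% of tested probe sets were higher and 3.92% lower. After quantile normalization the split was 8 higher and 7 lower. The median log2 difference of the 72 genes was 0.14, and that of all tested probe sets was 0.00. Of the 15 genes, Plat, Pigf and Furin stayed called whichever array was left out. The call was lost for 10 of the 15 without the untreated 2 h array and for 7 without that of 24 h, for 9 without the 16 h butyrate array, for up to 8 without another butyrate array and for up to 5 without an aspirin array. With the 2 and 24 h arrays only, blocked by hour, none of the 15 was called, and Plat, Pigf and Furin then had an adjusted p of 0.51 each.

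Among 13 tested secretases and partners, 2 were higher with butyrate and 3 lower. Furin, the convertase that removes the inhibitory propeptide of ADAM10 and its kin, fell to between 1876.2 and 3158.5 with butyrate, against 4550.4 and 5114.1 in untreated cells, a change of −0.99 ± 0.20 (adjusted p = 0.00783). Timp2, an inhibitor of metalloproteases, fell by 0.91 ± 0.21 (0.016), and Tmed10, a cargo receptor that also associates with gamma-secretase, fell by 0.63 ± 0.15 (0.0176). Aph1a, a subunit of gamma-secretase, rose by 0.63 ± 0.16 (0.0279), and the tetraspanin gene Cd81 rose by 1.03 ± 0.20 (0.00783). Psen2, a catalytic subunit of gamma-secretase, read 0.44 ± 0.32 (0.406). Adam17, the closest relative of ADAM10 and another alpha-secretase, read 0.88 ± 0.45 (0.219). Bace1, Bace2 and Aplp1 had no tested probe set of their own.

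Among 12 tested adaptors and sorting receptors of the amyloid precursor, 4 were higher with butyrate, with a list median of 0.43. Apbb1, which binds the inner tail of the precursor, rose by 1.40 ± 0.42 (adjusted p = 0.0482), with both untreated arrays and 1 butyrate array at the floor. With a floor of 20 it read 3.15, and with a floor of 200 it read 0.49 and was not called (0.329), so its size depends on the floor. Itm2b, a membrane protein that binds the precursor and limits its cleavage, rose by 1.01 ± 0.24 (0.0179). Lrpap1, a chaperone of the lipoprotein receptors that take up the precursor, rose by 1.25 ± 0.30 (0.0203). Cdk5, a kinase of the precursor's tail and of tau, rose by 1.52 ± 0.45 (0.0427).

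Among 15 tested genes of the list of carriers and breakdown of amyloid beta, 3 were higher with butyrate, with a list median of 0.42. Plat, the gene of tissue plasminogen activator, read between 333.9 and 1557.0 with butyrate, and both untreated arrays were at the floor, so it rose by at least 3.50 ± 0.51 (adjusted p = 0.00154). Clu, the gene of the amyloid-binding chaperone clusterin, rose by 1.83 ± 0.47 (0.0258), and Ctsd, the gene of the lysosomal protease cathepsin D, rose by 1.81 ± 0.54 (0.0443). This list also held 4 of the 7 pathway genes that rose over the hours of butyrate: Clu (slope 0.52), Plat (0.59), Ctsd (0.47) and Acat1 (0.23). Acat1 codes for a thiolase, not for a carrier or protease of amyloid beta. The others were the low-intensity genes Grin2a (0.76), Mt3 (0.83) and Thy1 (0.34). None of the 72 fell in limma, with 2 at an unadjusted p under 0.05, and after median centring the split was 5 rising and 3 falling. Of all tested probe sets, 4.79% rose and 4.2% fell over the hours of butyrate without that centring. Of the 7 rises, 6 were lost without the 2 h butyrate array, and the same number without the 16 h or the 24 h array.

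Among 20 tested relatives, partners and copper-handling genes of the prion protein, 1 was higher with butyrate and 2 lower, with a list median of −0.08. Pigf, an enzyme of the lipid anchor that holds the prion protein at the membrane, rose by 0.99 ± 0.17 (adjusted p = 0.00401), with 3114.2 to 4241.6 with butyrate, against 1917.0 and 1930.7 in untreated cells. Fyn, a kinase reported to signal below the prion protein, fell by 1.42 ± 0.40 (0.0371), and Grin1, a subunit of the NMDA receptor, fell by 0.97 ± 0.28 (0.0388). None of 12 tested further substrates of ADAM10 was called in limma with butyrate, with 1 higher and 4 lower at an unadjusted p under 0.05.

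**Figure D4:**
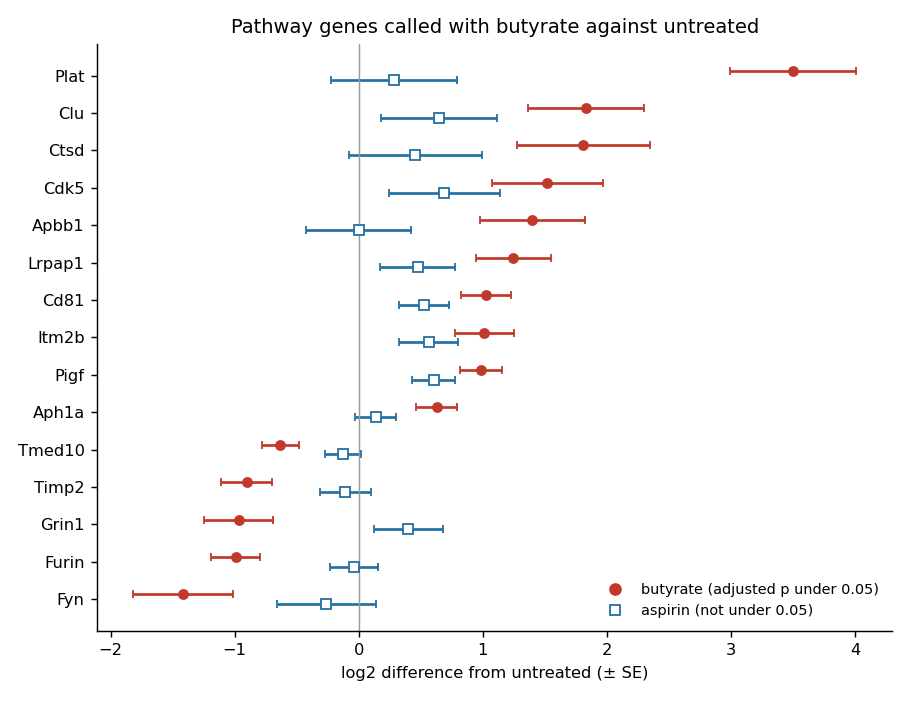
Log2 difference from untreated cells (± SE, limma on 12 arrays) of the 15 pathway genes called with butyrate, for butyrate and for aspirin. Plat stands apart at 3.50 with butyrate, as a lower bound, and no aspirin value has an adjusted p under 0.05.

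With aspirin against untreated cells none of the 72 pathway genes was called in limma, with 3 higher and 8 lower at an unadjusted p under 0.05. Only 0.0817% of tested probe sets were higher and 0.0654% lower (5 and 4, or 1 and 0 after median centring), and without the untreated 24 h array 5 pathway genes were called. Over the hours of aspirin 3 of the 72 rose, Ctsd (slope 0.63, adjusted p = 0.0168), Cdk5 (0.44, 0.0216) and the urokinase gene Plau (0.83, 0.02). None of the 72 fell, with 2 at an unadjusted p under 0.05, and the 3 rises were lost without the 2 h or the 24 h aspirin array. All tested probe sets were split as 81 rising and 20 falling, as 76 and 51 after quantile normalization, and as 61 and 135 after median centring; the pathway genes were then 3 rising and 1 falling. Plau was also the 1 gene whose slope differed between treatments, with −0.18 under butyrate and 0.83 under aspirin (SE of the difference 0.16, adjusted p = 0.032), and 8 of 10 single-array omissions ended that call.

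Butyrate against aspirin called 28 of the 72, with 19 higher and 9 lower, where 15.6% of tested probe sets were higher and 9.61% lower. After median centring, which moved each of these differences by −0.31, the split was 10 higher and 13 lower for the pathway and 556 and 1393 for all probe sets, against 952 and 588 without it. Among the secretases, Adam17 was higher like Adam10, with 372.5 to 658.6 with butyrate, against 115.2 to 219.6 with aspirin (1.56 ± 0.27, adjusted p = 0.0148), and untreated values of 468.0 and 142.0. Aph1a and Cd81 were higher and Tmed10, Timp2 and Furin lower. Of adaptors and receptor ligands, Apbb1, Itm2b, Lrpap1, Mapk8ip1, Klc1, Reln and Cdk5 were higher. Of the list of carriers and breakdown genes, Apoe, Clu, Ide, Ece1, Plat, Ctsd and the thiolase gene Acat1 were higher. Acat1 is not itself a carrier or protease of amyloid beta. Ide and Ece1 code for proteases that degrade amyloid beta, at 0.56 ± 0.13 (0.03) and 1.07 ± 0.21 (0.0186). Of the prion protein list Hsp90b1 and Grb2 were higher and Rpsa, Fyn, Grin1, Sod1 and Cp lower. Of the ADAM10 substrates the Notch ligand gene Jag1 was lower, by −0.79 ± 0.15 (0.0183). Ctsd, Grin1 and Plat stayed called whichever array was left out, and the other 25 did not. Since this fit pairs arrays by hour, leaving out an array also took its partner out of the difference. Omitting either array of an hour therefore gave the same estimate, and these omissions are not separate checks.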

How the data were processed

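The study measured total RNA of 12 CC531 samples on rat expression arrays, and samples were grouped by the labels as 5 butyrate, 5 aspirin and 2 untreated. The values are intensities on a linear scale, read as such from the deposited table. How the authors scanned, corrected and scaled the arrays is not stated in the labels or the table's header. With the lowest and highest 2% of values removed, each array averaged 1000, so values were not scaled again. Of 8799 probe sets, 59 controls were left out. The floor under low values was the size of the 10th percentile of all values, 91 (log2 6.51), since the percentile itself was negative, and 13.4 to 21.1% of tested values on an array lay at it. A filter on the mean log2 value, at its 30th percentile (6.54), removed 2622 probe sets and kept 6118.

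The platform annotation gave 1 gene for 7006 probe sets, several for 308 and none for 1426. All fits used limma 3.58.1 in R 4.3.3, by lmFit and then eBayes with a variance trend. The fit of 3 groups to 12 arrays left 9 degrees of freedom for the spread, that of butyrate against aspirin, blocked by hour over 10 arrays, left 4, and that of slopes left 6. P-values were adjusted by Benjamini and Hochberg over all tested probe sets, with a threshold of 0.05, and the fits were tested on simulated data first. The hours of a treatment stand for its replicates, so the group spread holds changes over time, and the number of arrays limits the precision. "At least" marks a difference from arrays that were all at the floor, where no array of the other group was at it.

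The 4 genes and the lists were chosen with earlier results of these data known. Named pathway genes are the called members of the lists plus Bace1, Bace2, Psen2, Adam17 and Aplp1 (another gene of this rule is not reported here), and similar genes are the 5 with the highest correlation to the brightest probe set. Probe sets whose names differ only in the letter g share a source sequence and are not independent. Promoter sequences are those of RefSeq for GRCr8, and all 4 genes had one. Alternatives were 2 other floors, quantile normalization, median centring, no filter, no variance trend, other array sets and blocks, linear hours, probe sets averaged by gene, and each array left out.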

Additional observations from a re-analysis of the deposited data

How the results depend on the processing

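Prnp and all Aplp2 probe sets kept a positive butyrate minus untreated difference under every alternative run. Adam10 kept a negative aspirin minus untreated difference, at −1.20 with a floor of 200, and a positive butyrate minus aspirin difference, at 0.91 with a floor of 200, 1.59 after quantile normalization and 1.55 after median centring. With the 2 and 24 h arrays only and the hour as a block, Prnp read 2.01 for aspirin minus untreated. Median centring moved all butyrate minus untreated differences by −0.14, all aspirin minus untreated ones by 0.17, all butyrate minus aspirin ones by −0.31 and the slopes by −0.11 with butyrate and −0.09 with aspirin. It turned the sign of aspirin minus untreated for both M31322 probe sets of Aplp2 and for X07648cds_at of App, each within its SE of 0. Quantile normalization shifted the single probe sets by a median of −0.12, 0.06 and −0.18 for the 3 differences.

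The count of probe sets called for butyrate minus untreated was 716. It was 309 with a floor of 200, 355 with no filter, 306 with only the arrays of these groups and 0 with the 2 and 24 h arrays blocked by hour, and the 15 pathway genes became 7, 7, 4 and 0. For aspirin minus untreated the 9 probe sets became 14 with a floor of 200, 0 after quantile normalization, 1 after median centring, 3 with no variance trend and 0 with the 2 and 24 h arrays blocked by hour. For butyrate minus aspirin the 1540 probe sets became 648 with a floor of 200 and 779 with no filter, and the 28 pathway genes 13 and 15. For slopes with butyrate the 550 probe sets became 314 and 329 under these settings, and the 7 pathway genes 1 and 1. For slopes with aspirin the 101 probe sets became 266 with a floor of 20, 35 with a floor of 200, 196 after median centring and 230 with linear hours. Their 3 pathway genes became 7 with a floor of 20, 5 with linear hours and 5 with probe sets averaged by gene. For the difference of slopes the 106 probe sets became 34 with a floor of 200 and 37 with no filter, and the 1 pathway gene became 0 and 0. Without a filter more probe sets were tested, and some settings used fewer arrays; the cause of the other changes was not tested.

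Slopes near 0 changed sign. With butyrate, Adam10 had −0.020 after quantile normalization and −0.061 after median centring, and X07648cds_at of App −0.091 after median centring. With aspirin, Adam10 had −0.0020 after quantile normalization and −0.023 after median centring. The difference of slopes was −0.44 for X77934cds_g_at of Aplp2 with a floor of 20 and 0.047 for Adam10 with a floor of 200.

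Leaving out each array in turn gave 310 to 1166 probe sets and 6 to 19 pathway genes for butyrate minus untreated, and 1 to 306 and 0 to 5 for aspirin minus untreated. It gave 240 to 1645 and 4 to 30 for butyrate minus aspirin, 81 to 541 and 1 to 7 for slopes with butyrate, 7 to 231 and 0 to 6 for slopes with aspirin, and 3 to 119 and 0 to 2 for their difference. Butyrate minus untreated then ranged from −0.32 to 1.19 on X07648cds_at and from −0.13 to 0.71 on X07648cds_g_at of App, and from −1.49 to 1.05 for Adam10. Aspirin minus untreated ranged from −0.68 to 0.16 on X07648cds_g_at, from −2.10 to 0.14 on X77934cds_at of Aplp2 and from −3.35 to −0.81 for Adam10. The butyrate slope ranged from 0.32 to 0.53 on M31322_at, from −0.037 to 0.13 on X07648cds_at and from −0.032 to 0.079 for Adam10. The aspirin slope ranged from −0.24 to 0.91 for Prnp, from −0.028 to 0.57 on X07648cds_g_at and from −0.016 to 0.23 for Adam10. The difference of slopes ranged from −0.44 to 0.71 for Prnp, from −0.26 to 0.033 on X07648cds_at and from −0.18 to 0.062 for Adam10. The labels number no replicates, so arrays were paired by hour alone. Without that block butyrate minus aspirin called 1535 probe sets and 27 pathway genes, against 1540 and 28 with it. Signal near the floor limits Adam10 with aspirin and the dim X77934cds_g_at most.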
